A study of Ananas comosus with 9 samples.

Results

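In the peel of pineapple (Ananas comosus), 91 genes without a KEGG ortholog were expressed at 60 and at 90 days after flowering (DAF) and stood at a small share of that level at 120 DAF. They were chosen from 26730 gene models by their measured levels. A gene had to lack a KEGG ortholog and the GO terms for DNA-binding transcription factor activity and for cysteine-type peptidase activity, which left 18803 genes once Aco011715 and Aco005546 were set aside. Its mean level plus 0.1 FPKM (fragments per kilobase of transcript, scaled to library depth, as deposited) then had to reach at least 5 at both younger ages and at least 8 times the 120 DAF value at each of them. Because those levels chose the genes, every difference between 120 DAF and the younger ages is given below as a description, without a test. Of the 7874 unassigned genes that reached the level limit at both younger ages, 1.16% passed the fold limit.

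The study followed peel as the fruit matured and its colour changed. It holds 9 RNA-seq libraries of peel, 3 at each of 60, 90 and 120 DAF, with no treatment and no named cultivar in the labels. Poly(A) RNA was captured, fragmented and sequenced in pairs on an Illumina NovaSeq instrument, per the labels' protocols. The labels name no separate fruits or plants behind the libraries of 1 age, so the p-values reflect only how far these samples spread, and that spread may be technical. Peel holds several cell types, and in such bulk RNA fewer cells of a type and less RNA per cell cannot be told apart.

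Genes without an ortholog assignment are often lineage-specific, short, or members of large families whose exact function has not been worked out, so GO terms taken from protein domains are often their only annotation. The terms found here cover several processes of a growing fruit surface. Lipid-transfer proteins carry waxes and other lipids towards the cuticle, xylan and xyloglucan enzymes build and remodel the cell wall, and channels and transporters move water, ions and metabolites across membranes. Repressors and DNA-binding proteins set transcription, and peptidase inhibitors hold back protein-digesting enzymes.

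Total counts per library ran from 35038248 to 52937826. The members took 0.403 to 1.05% of the counts of a library at 60 and 90 DAF. In the libraries of 120 DAF they took 0.0197 to 0.0478%. The library numbered 2 stood above the others of its age for many members at all 3 ages. At 60 DAF it was at least 3 times both others in 12 of 91 members (13.2%), against 0.699% of the unassigned genes expressed at the younger ages. The same held at 90 DAF in 13 of 91 members (14.3%), against 1.28%, and at 120 DAF in 21 of 91 members (23.1%), against 1.02%. In replicate 1 this held for 0, 0 and 2 members at 60, 90 and 120 DAF, against 1.03, 0.292 and 0.203%. In replicate 3 it held for 1, 5 and 4 members, against 0.0762, 2.97 and 2.30%. A rule on means lets a high library carry a younger mean, and few counts stand behind the low levels at 120 DAF. The rule treats the 3 libraries of an age alike, and why the library numbered 2 stood apart was not tested. Light-harvesting genes, which mark green tissue, also differed between libraries, with summed levels of 114, 239 and 165 FPKM at 60 DAF, then 575, 2744 and 336 at 90 DAF, then 30.2, 27.7 and 49.5 at 120 DAF, so that 90 DAF replicate 2 stood highest there as well. The part of green tissue in the members' levels was not tested. The summed level of cuticle genes, listed as markers of the epidermis, lay between 125 and 468 FPKM over the 9 libraries. Transcripts of this list were thus present at each age, and the cells they came from were not tested. Of the 23 light-harvesting genes 2 were at 0 in every library, and of the 36 cuticle genes 5 were.

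The median of the members' mean levels was 12.1 FPKM at 60 DAF, 17.8 at 90 DAF and 0.588 at 120 DAF. At 120 DAF 62 members had a mean under 1 FPKM. In 86 of the 91 members all 6 younger libraries lay above all 3 of 120 DAF, a pattern that the rule largely fixes and that 18.8% of the 16791 tested genes showed. The exceptions were Aco011717, Aco024639, Aco012610 and Aco029263, with 5 of the 6 younger libraries above, and Aco025830 with 4. With 0.1 FPKM added to each mean, the smaller of the 2 ratios to 120 DAF ran from 8.21 to 127, with a median of 14.9. The highest was that of Aco031302, whose locus was not low at 120 DAF once the model overlapping it was added, and the next was 74.98 in Aco001801. Without Aco014000, the most abundant, the members' levels summed to 2298, 4385 and 3189.5 FPKM at 60 DAF, then 3203, 6306 and 3323 at 90 DAF, then 135, 285 and 158 at 120 DAF.

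**Figure D1:**
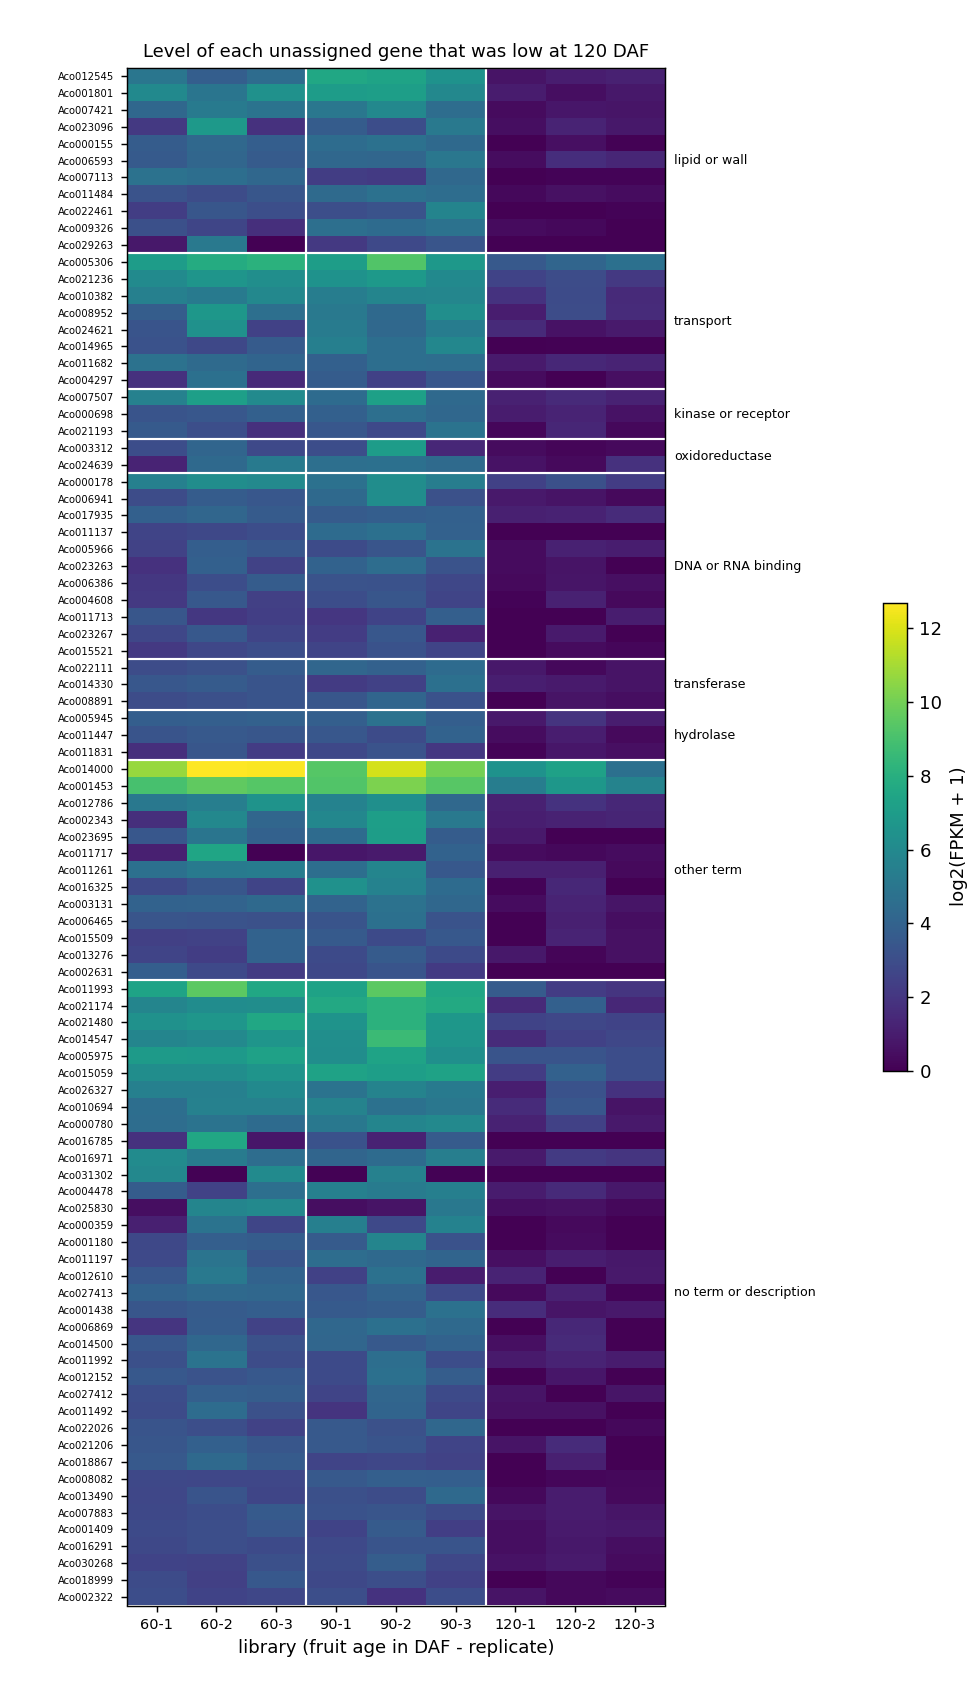
Level of the 91 members (rows, by annotation group) in each of the 9 libraries (columns, age and replicate), as colour on a log2(FPKM + 1) scale. The 3 columns of 120 DAF are dark for nearly every member, with a median of the 120 DAF means of 0.588 FPKM where 60 and 90 DAF had 12.1 and 17.8.

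By annotation, 52 of the 91 members carried a GO term and 2 a product description, while 37 had neither. A GO term was carried by 57.1% of the members and by 67.6% of the unassigned genes expressed at the younger ages. The annotated members comprised 11 for lipids or the cell wall, 8 for transport, 3 kinases, 2 oxidoreductases, 11 for DNA or RNA binding and transcription, 3 transferases, 3 hydrolases or lyases and 13 with other terms. Genes are described in that order, with the values of each library in the order of replicates 1, 2 and 3, and no member carried a GO term for stress or defence.

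The 11 lipid and wall members ran from 8.91 to 84.4 FPKM as the mean of both younger ages. Aco012545 (contig 14, 2029178 to 2031174), with terms for lipid transport and lipid binding, stood at 30.8, 12.7 and 21.2 FPKM at 60 DAF, then 192, 163 and 87.3 at 90 DAF, then 0.588, 1.01 and 1.26 at 120 DAF. All 3 libraries of 90 DAF lay above all 3 of 60 DAF, and all 6 far above 120 DAF. Aco007113, with the same terms and a span of 360 bp, stood at 26.9, 22.9 and 17.8 FPKM at 60 DAF, then 3.87, 3.53 and 18.5 at 90 DAF, then 0, 0.105 and 0.104 at 120 DAF. Its order was the other way, since 60 DAF replicates 1 and 2 were above every library of 90 DAF. Aco029263, annotated for lipid transport alone, stood at 0.738, 34.04 and 0 FPKM at 60 DAF, then 3.39, 5.96 and 9.34 at 90 DAF, then 0, 0 and 0 at 120 DAF, so that its 60 DAF mean rested on replicate 2.

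Of the wall members, Aco001801, Aco000155 and Aco011484 relate to xylan, the main hemicellulose of secondary walls. Aco001801, described as TBL33, whose Arabidopsis counterpart adds acetyl groups to xylan, stood at 64.2, 29.4 and 84.9 FPKM at 60 DAF, then 128, 139 and 60.1 at 90 DAF, then 0.929, 0.392 and 0.763 at 120 DAF (contig 19, 7849794 to 7854628). With 0.1 FPKM added to each mean, its 120 DAF mean was below the smaller of its younger means by a factor of 74.98. Aco000155, annotated as a glucuronosyltransferase of xylan synthesis in the Golgi and of secondary wall formation, stood at 12.1, 18.5 and 12.8 FPKM at 60 DAF, then 21.5, 25.7 and 19.1 at 90 DAF, then 0, 0.442 and 0.0375 at 120 DAF. Aco011484, also annotated for xylan synthesis, stood at 8.52, 6.75 and 9.73 FPKM at 60 DAF, then 19.7, 26.1 and 22.2 at 90 DAF, then 0.194, 0.496 and 0.338 at 120 DAF. In both, every library of 90 DAF was above every library of 60 DAF, and every younger library above all of 120 DAF. Aco007421, with a term for xylem development, stood at 17.9, 35.95 and 27.6 FPKM at 60 DAF, then 32.4, 59.6 and 22.6 at 90 DAF, then 0.295, 0.702 and 0.620 at 120 DAF, with overlapping values at 60 and 90 DAF.

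Other wall members carry terms for xyloglucan and pectin. Aco009326 carries terms for xyloglucan:xyloglucosyl transferase activity, the cutting and rejoining of xyloglucan chains during wall growth, and stood at 7.698, 5.21 and 2.31 FPKM at 60 DAF, then 23.6, 20.4 and 26.8 at 90 DAF, then 0.289, 0.192 and 0 at 120 DAF. Aco006593, annotated as a polygalacturonase, an enzyme that cuts pectin, stood at 11.2, 17.4 and 11.3 FPKM at 60 DAF, then 18.2, 17.1 and 31.96 at 90 DAF, then 0.352, 2.17 and 1.56 at 120 DAF, without a clear order between 60 and 90 DAF. Aco023096, annotated for cell wall, apoplast and manganese binding, stood at 3.38, 115 and 2.53 FPKM at 60 DAF, then 11.99, 7.03 and 33.8 at 90 DAF, then 0.404, 1.42 and 0.756 at 120 DAF. Its 60 DAF level was carried by replicate 2, while the other libraries of that age were lower than all 3 of 90 DAF. Aco022461, annotated for lipid metabolism and hydrolase activity, stood at 4.01, 9.396 and 7.42 FPKM at 60 DAF, then 7.39, 8.55 and 51.6 at 90 DAF, then 0, 0 and 0.0742 at 120 DAF, with 90 DAF replicate 3 the highest.

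The 8 transport members ran from 9.15 to 248 FPKM. The most abundant was Aco005306 (contig 17, 3828557 to 3834425), annotated for metal ion transport and metal ion binding, at 130.3, 223 and 278 FPKM at 60 DAF, then 133, 612 and 109 at 90 DAF, then 10.7, 16.6 and 25.1 at 120 DAF. Its level at 90 DAF was highest in replicate 2, and it was above 10 FPKM in every library of 120 DAF. Aco021236, with the same terms, was steadier across the younger libraries, at 66.6, 97.4 and 77.8 FPKM at 60 DAF, then 87.1, 115 and 63.6 at 90 DAF, then 4.81, 6.81 and 3.29 at 120 DAF. Aco010382, described, by projection from a rice gene, as a calcium-permeable mechanosensitive channel that regulates calcium influx at the plasma membrane and is linked to reactive oxygen formed under hypo-osmotic stress, stood at 44.6, 36.5 and 60.5 FPKM at 60 DAF, then 41.1, 54.1 and 55.5 at 90 DAF, then 2.65, 6.43 and 1.87 at 120 DAF. Its 60 and 90 DAF values overlapped and differed little.

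Of the 3 members with a channel activity term, Aco008952 stood at 12.3, 106 and 24.001 FPKM at 60 DAF, then 34.6, 19.4 and 77.2 at 90 DAF, then 0.995, 6.72 and 1.91 at 120 DAF. Aco024621 and Aco004297 are models with the same coordinates (contig 6, 1976486 to 1978834) on the same strand. They stood at 8.86, 85.04 and 4.52 FPKM at 60 DAF, then 38.02, 18.3 and 39.1 at 90 DAF, then 1.87, 0.513 and 0.876 at 120 DAF, and at 2.49, 24.5 and 1.83 FPKM at 60 DAF, then 11.8, 4.57 and 9.78 at 90 DAF, then 0.281, 0 and 0.412 at 120 DAF, respectively. In all 3 channel members, 60 DAF replicate 2 was the highest library, and the models with shared coordinates count as 1 locus. The transporter Aco014965, with a term for transmembrane transporter activity, stood at 8.29, 5.78 and 11.7 FPKM at 60 DAF, then 43.7, 23.2 and 57.2 at 90 DAF, then 0, 0.0444 and 0.0438 at 120 DAF. All its 90 DAF libraries were above those of 60 DAF, and at 120 DAF it was near 0. Aco011682, with the same term, stood at 27.004, 20.2 and 16.2 FPKM at 60 DAF, then 13.6, 23.1 and 22.6 at 90 DAF, then 0.907, 1.67 and 1.44 at 120 DAF, with no order between 60 and 90 DAF.

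Among the 11 members for DNA or RNA binding and transcription, means of both younger ages ran from 5.701 to 54.1 FPKM. Genes with a GO term for DNA-binding transcription factor activity had been left out by the rule, so these are proteins with looser terms. Aco000178, annotated for sequence-specific DNA binding and transcriptional regulation in the nucleus, stood at 45.9, 74.7 and 63.1 FPKM at 60 DAF, then 25.5, 74.6 and 40.8 at 90 DAF, then 4.402, 7.55 and 3.72 at 120 DAF. Aco006941, with an RNA binding term, stood at 6.87, 11.9 and 9.93 FPKM at 60 DAF, then 19.6, 74.6 and 8.03 at 90 DAF, then 0.830, 0.574 and 0.242 at 120 DAF, highest in 90 DAF replicate 2. Aco011713, annotated for zinc ion binding and sequence-specific DNA binding, stood at 9.46, 3.099 and 4.12 FPKM at 60 DAF, then 2.97, 4.85 and 13.6 at 90 DAF, then 0, 0 and 1.02 at 120 DAF, with 2 of its 120 DAF libraries at 0.

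The pair annotated for negative regulation of transcription comprised Aco011137 and Aco015521, each in the nucleus by its terms. Aco011137 (contig 5, 13429661 to 13430527) stood at 5.03, 5.71 and 7.07 FPKM at 60 DAF, then 20.96, 25.2 and 14.4 at 90 DAF, then 0, 0 and 0 at 120 DAF, with all 3 libraries of 90 DAF above those of 60 DAF and none with a count at 120 DAF. Aco015521 stood at 3.32, 5.44 and 7.07 FPKM at 60 DAF, then 5.13, 8.12 and 5.12 at 90 DAF, then 0, 0.308 and 0.165 at 120 DAF, with its 60 and 90 DAF values intermixed. The other DNA-binding members were Aco017935, Aco005966, Aco023263, Aco006386, Aco004608 and Aco023267. Aco017935, close to the fold limit, stood at 14.1, 17.4 and 11.6 FPKM at 60 DAF, then 11.6, 13.1 and 13.7 at 90 DAF, then 1.14, 1.34 and 1.93 at 120 DAF, with little spread among the libraries of 90 DAF.

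The 3 kinase members carry terms for kinase activity or protein phosphorylation, the addition of phosphate by which plant cells pass on signals. Aco007507, also annotated for signal transduction, stood at 46.5, 141 and 65.6 FPKM at 60 DAF, then 20.97, 148 and 19.5 at 90 DAF, then 1.25, 1.87 and 1.36 at 120 DAF, with replicate 2 highest at both younger ages. Aco000698 stood at 8.96, 9.82 and 13.7 FPKM at 60 DAF, then 14.01, 23.99 and 17.8 at 90 DAF, then 0.959, 1.44 and 0.520 at 120 DAF, with each 90 DAF library above all of 60 DAF. Aco021193, annotated as an integral membrane protein with kinase activity, stood at 11.1, 7.41 and 2.41 FPKM at 60 DAF, then 10.002, 6.09 and 27.9 at 90 DAF, then 0.185, 1.605 and 0.226 at 120 DAF, with 90 DAF replicate 3 the highest.

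Among the enzymes, Aco003312, annotated for protein disulfide oxidoreductase activity and cell redox homeostasis, terms shared by thioredoxin-type proteins, stood at 6.89, 16.5 and 5.91 FPKM at 60 DAF, then 7.13, 129 and 1.71 at 90 DAF, then 0.297, 0.140 and 0.271 at 120 DAF. Its 90 DAF level was carried by replicate 2. Aco024639, annotated for electron transfer, stood at 1.397, 19.4 and 37.2 FPKM at 60 DAF, then 24.1, 24.4 and 20.2 at 90 DAF, then 0.517, 0.248 and 2.54 at 120 DAF, and 60 DAF replicate 1 was below 120 DAF replicate 3. The acyltransferase Aco022111 stood at 6.61, 7.85 and 11.9 FPKM at 60 DAF, then 17.6, 14.6 and 20.7 at 90 DAF, then 0.773, 0.225 and 0.613 at 120 DAF, with the 90 DAF libraries above those of 60 DAF. A second acyltransferase, Aco014330, and the glycosyltransferase Aco008891 had means of both younger ages of 10.5 and 9.62 FPKM. The aspartic endopeptidase Aco005945, the serine endopeptidase Aco011447 and Aco011831, annotated for strictosidine synthase activity, had 15.7, 10.1 and 5.55 FPKM, with 120 DAF means of 1.501, 0.541 and 0.405.

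The most abundant member was Aco014000 (contig 4, 625429 to 626698), annotated as a serine-type endopeptidase inhibitor of the extracellular region. It stood at 1689, 6668 and 6417 FPKM at 60 DAF, then 659, 3760.4 and 1065 at 90 DAF, then 88.4, 152 and 24.7 at 120 DAF. Libraries of 1 age differed by several fold, yet every younger library was above every library of 120 DAF. Aco013999, the next model on the contig, 5965 bp away, carries the same inhibitor term and is no member. It was chosen for comparison after its values were seen. Its level was 57222 ± 4387 FPKM at 60 DAF, 32524 ± 8575 at 90 DAF and 105578 ± 35949.8 at 120 DAF (SD, n = 3). Aco013999 was thus higher at 120 than at 90 DAF, by 1.99 ± 0.35 on the log2 scale (SE, edgeR, adjusted p = 0.00966, and 2.93e-09 to 0.170 over the alternatives), where Aco014000 was lower. Against 60 DAF its difference of 1.16 ± 0.34 did not pass (edgeR, adjusted p = 0.0692). The call of Aco013999 against 90 DAF was lost by limma, with only the compared ages fitted, and without the libraries numbered 2 of 60 and 90 DAF. If reads of similar inhibitor genes were split between copies by the counting, both levels are uncertain to that extent.

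Aco001453, annotated for protein binding, was the second most abundant member, at 510.2, 768 and 659 FPKM at 60 DAF, then 612, 1174 and 673 at 90 DAF, then 41.001, 105 and 49.97 at 120 DAF. Its 120 DAF level was the highest of the members after Aco014000. Aco012786, annotated for regulation of DNA endoreduplication, in which cells copy their genome without dividing, stood at 33.5, 42.6 and 89.6 FPKM at 60 DAF, then 48.6, 79.2 and 18.6 at 90 DAF, then 1.23, 2.67 and 1.703 at 120 DAF. Aco023695, annotated for photosystem II, the water-splitting complex of photosynthesis, stood at 9.999, 29.9 and 14.5 FPKM at 60 DAF, then 20.7, 131 and 11.9 at 90 DAF, then 0.828, 0.00409 and 0 at 120 DAF. It had the pattern of the light-harvesting sums in that 90 DAF replicate 2 was the highest library. Aco002343, annotated for calcium ion binding and calcium-dependent phospholipid binding, stood at 2.23, 60.8 and 17.3 FPKM at 60 DAF, then 58.2, 138 and 34.5 at 90 DAF, then 1.13, 1.32 and 1.48 at 120 DAF, with 60 DAF replicate 1 close to the level of 120 DAF.

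Microtubules guide the laying down of wall fibres, and a pair of members carry microtubule terms. Aco003131, annotated for microtubule binding, stood at 14.999, 15.2 and 19.4 FPKM at 60 DAF, then 15.8, 26.3 and 17.9 at 90 DAF, then 0.348, 1.43 and 0.623 at 120 DAF. Aco015509, annotated for cortical microtubule organization, stood at 4.34, 4.602 and 15.1 FPKM at 60 DAF, then 10.95, 6.14 and 10.5 at 90 DAF, then 0, 1.39 and 0.507 at 120 DAF. Both had overlapping values at 60 and 90 DAF. Aco011261, annotated for protein folding, stood at 24.7, 35.6 and 39.5 FPKM at 60 DAF, then 23.5, 53.8 and 10.2 at 90 DAF, then 1.16, 1.14 and 0.250 at 120 DAF.

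Some members carry reproductive terms, and a role in reproduction was not tested. Aco016325 and Aco011717 carry terms for sexual reproduction and the extracellular region. Aco016325 stood at 5.89, 9.68 and 5.14 FPKM at 60 DAF, then 84.6, 47.8 and 20.96 at 90 DAF, then 0.105, 1.66 and 0 at 120 DAF, with all 90 DAF libraries above those of 60 DAF. Aco011717 stood at 1.14, 176 and 0 FPKM at 60 DAF, then 0.680, 0.897 and 14.7 at 90 DAF, then 0.275, 0.212 and 0.359 at 120 DAF. Its 60 DAF mean rested on replicate 2 and its 90 DAF mean on replicate 3, and 3 of the younger libraries were under 1 FPKM. Aco002631, annotated for male and female meiotic nuclear division, stood at 12.8, 6.09 and 3.57 FPKM at 60 DAF, then 5.82, 8.97 and 3.51 at 90 DAF, then 0, 0 and 0 at 120 DAF. The membrane proteins Aco006465 and Aco013276 had means of both younger ages of 11.4 and 7.93 FPKM.

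**Figure D2:**
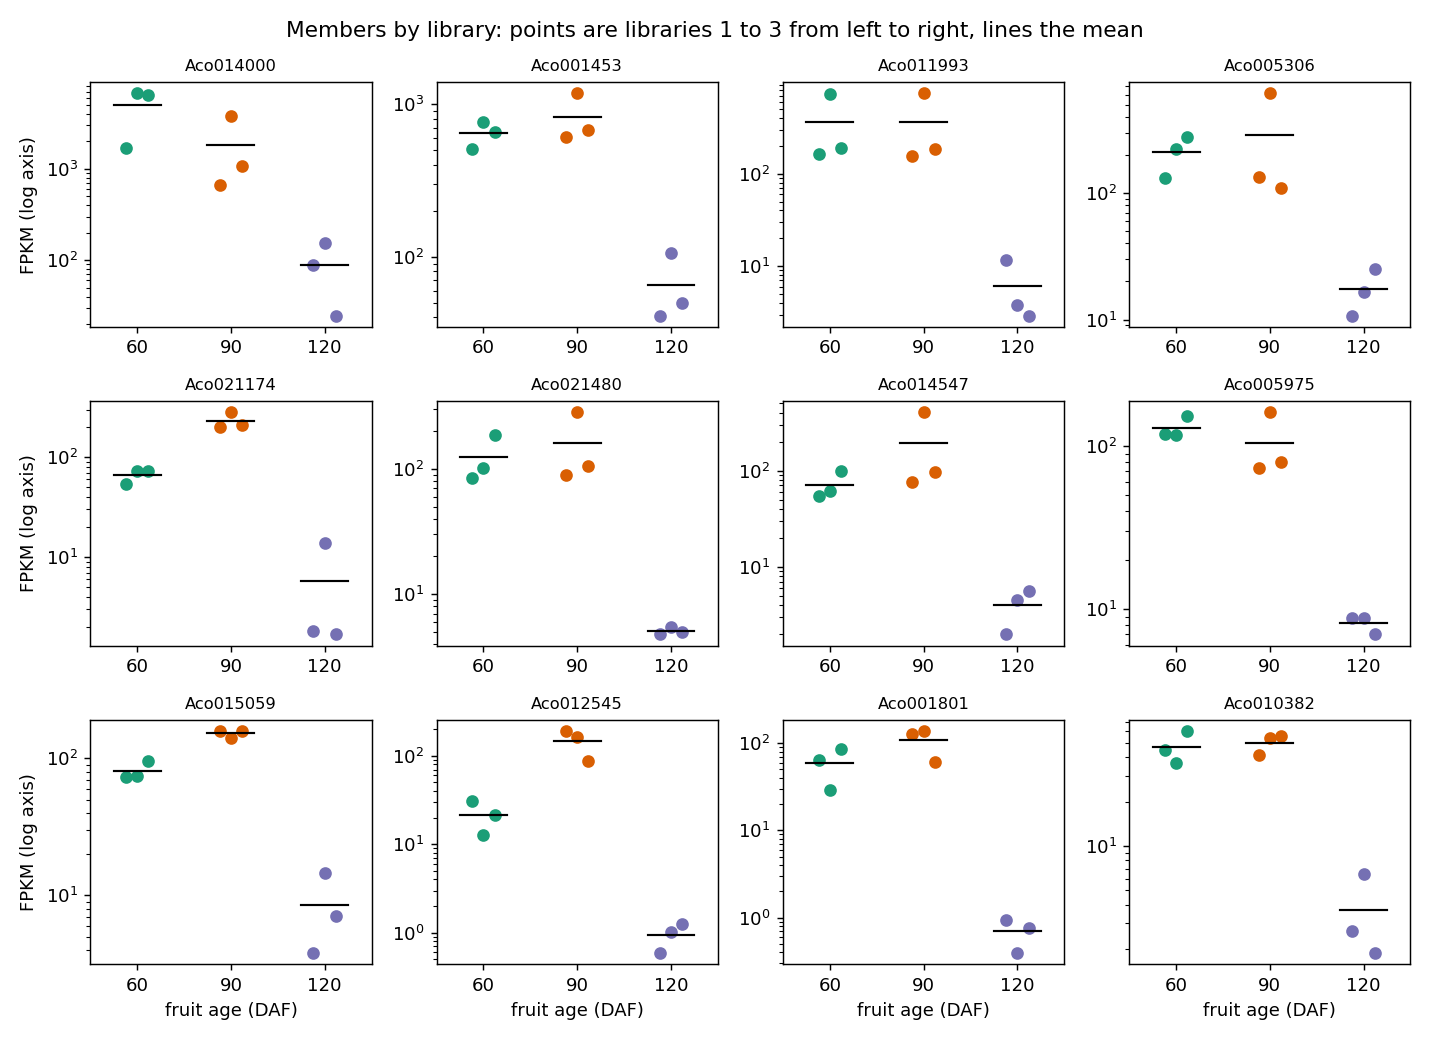
FPKM (log axis) by fruit age for 12 members, the 9 most abundant and Aco012545, Aco001801 and Aco010382, with libraries 1 to 3 as points from left to right and the mean as a line. In each of these members every point at 60 and 90 DAF lies above all 3 at 120 DAF, and in Aco021174, Aco015059 and Aco012545 the 90 DAF points also lie above those of 60 DAF.

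The 37 members with neither a term nor a description included 6 of the 10 most abundant. Aco011993 (contig 4, 14201339 to 14202320) stood at 163, 729 and 188 FPKM at 60 DAF, then 156, 737 and 184 at 90 DAF, then 11.6, 3.78 and 2.91 at 120 DAF. In it the library numbered 2 was several times higher at both younger ages, and the lowest levels were those of 120 DAF. Aco021174 stood at 54.2, 72.1 and 73.2 FPKM at 60 DAF, then 201, 283 and 211 at 90 DAF, then 1.82, 13.9 and 1.68 at 120 DAF, with its 90 DAF libraries all above those of 60 DAF. Aco021480 stood at 83.7, 101 and 186 FPKM at 60 DAF, then 89.7, 283 and 105 at 90 DAF, then 4.78, 5.47 and 4.97 at 120 DAF, and Aco014547 at 54.1, 61.7 and 98.3 FPKM at 60 DAF, then 76.8, 405 and 96.8 at 90 DAF, then 1.98, 4.51 and 5.61 at 120 DAF. In both, 90 DAF replicate 2 was the highest library. Both models span 151 bp, and FPKM is scaled by length. Their counts at 60 DAF summed to 2259 and 1306, against 13092 for Aco021236, which ranked 10 by FPKM.

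Aco005975 stood at 119, 117 and 153 FPKM at 60 DAF, then 73.8, 162 and 79.8 at 90 DAF, then 8.78, 8.797 and 6.995 at 120 DAF, with overlapping values at the younger ages. Aco015059 stood at 73.1, 74.1 and 95.8 FPKM at 60 DAF, then 159, 139.7 and 157 at 90 DAF, then 3.79, 14.6 and 7.09 at 120 DAF, again with the 90 DAF libraries above those of 60 DAF. The unannotated members had means of both younger ages from 5.75 to 359 FPKM. Those not described elsewhere, Aco026327, Aco027413, Aco001438, Aco014500, Aco012152, Aco027412, Aco022026, Aco021206, Aco013490, Aco007883, Aco001409, Aco016291, Aco018999 and Aco002322, had means from 5.75 to 44.8 FPKM. Among the other unannotated members, Aco000359 stood at 1.15, 27.9 and 5.23 FPKM at 60 DAF, then 43.2, 6.01 and 47.9 at 90 DAF, then 0, 0.260 and 0 at 120 DAF. Aco001180 stood at 5.69, 13.6 and 12.2 FPKM at 60 DAF, then 11.5, 54.4 and 8.204 at 90 DAF, then 0, 0.276 and 0 at 120 DAF, with 90 DAF replicate 2 the highest. Aco016971 stood at 69.4, 38.3 and 22.1 FPKM at 60 DAF, then 16.5, 20.7 and 42.4 at 90 DAF, then 0.903, 3.39 and 2.94 at 120 DAF. Aco018867 was the only member whose 3 libraries of 90 DAF all lay below those of 60 DAF, at 10.7, 19.1 and 11.5 FPKM at 60 DAF, then 5.05, 5.62 and 4.67 at 90 DAF, then 0, 1.195 and 0 at 120 DAF.

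A count of 0 in all 3 libraries of 120 DAF was found for 4 members, Aco016785, Aco011137, Aco029263 and Aco002631, and 31 members had a count of 0 in at least 1 of them. For these 4, folds are lower bounds against a floor of 3 counts over the age, which covers counting error only. The repressor-type gene Aco011137 was at least 843-fold higher at 90 than at 120 DAF and at least 248-fold higher at 60 DAF. The meiosis-annotated Aco002631 was at least 251-fold higher at 90 DAF and at least 308-fold higher at 60 DAF. For Aco016785, which has no annotation, the bounds were 159 and 1480.4, and for the lipid transport gene Aco029263 they were 86.4 and 161. The values of Aco016785 were 2.54, 191 and 0.725 FPKM at 60 DAF and 8.11, 1.29 and 11.5 at 90 DAF, so its 60 DAF level came almost wholly from replicate 2.

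Between 60 and 90 DAF, the comparison that the rule did not set directly, few members passed the test. The rule still bounded it, since the mean of each younger age had to pass both limits. All tested genes faced no such limits, and the shares set beside theirs below carry that difference. All 91 passed the filter of 1 FPKM in 3 libraries, as the rule all but ensured. By edgeR's quasi-likelihood test with Benjamini-Hochberg adjustment over 16791 genes, 1 member was called, higher at 90 DAF, where 0.786% of all tested genes were called, 0.322% higher and 0.465% lower. A share of 1 in 91 is near that background. At an unadjusted p under 0.05 there were 11 members (12.1%), all higher at 90 DAF, against 16.9% of all tested genes in either direction. The share of all tested genes that were higher at this p was not counted apart. The fitted log2 fold changes ran from -3.31 to 2.83, with a median of 0.25 against 0.03 over all tested genes, and 54 were above 0.

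**Figure D3:**
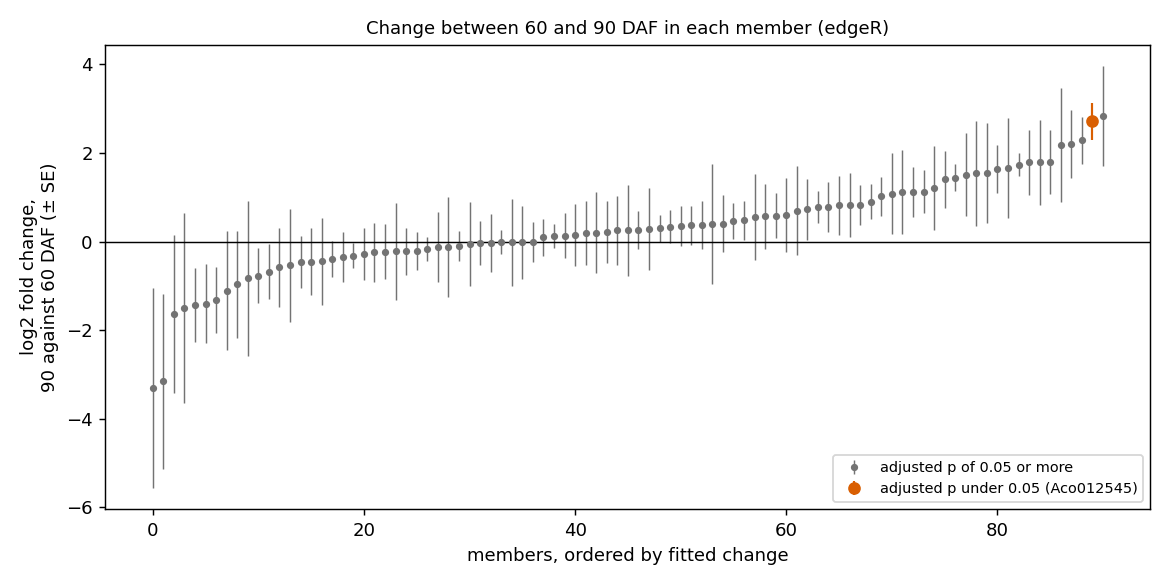
Log2 fold change of each member at 90 against 60 DAF by edgeR (points, bars are ± SE), in order of size along the horizontal axis. Aco012545, in orange, is the 1 member past an adjusted p of 0.05, and the others lie on both sides of 0 from -3.31 to 2.83.

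The called member was the lipid transport gene Aco012545, which rose by 2.72 ± 0.42 on the log2 scale (SE, edgeR, adjusted p = 0.0384). Its adjusted p ran from 5.53e-08 to 0.165 over the alternatives. The call was lost in 10 of 18 of them, among these the fits without any 1 library of 60 DAF, without replicate 1 or 3 of 90 DAF and without replicate 1 or 3 of 120 DAF. Its adjusted p was highest, 0.165, without 60 DAF replicate 3. The repressor-type gene Aco011137 missed the threshold, at 1.74 ± 0.27 (edgeR, adjusted p = 0.0554). So did the xylan gene Aco011484, at 1.44 ± 0.30 (adjusted p = 0.0759), and the transporter Aco014965, at 2.28 ± 0.53 (adjusted p = 0.0948). The xyloglucan gene Aco009326 had 2.20 ± 0.76 (adjusted p = 0.202). DESeq2 called 6 of the 91 members, all higher at 90 DAF, which were these 5 and the unannotated Aco004478. Of its 16644 tested genes it called 707 higher and 730 lower, 8.63% in either direction. Limma on log2(FPKM + 1) called 6, all higher, the same 5 and the unannotated Aco008082. Of 16791 tested genes limma called 143 higher and 150 lower, 1.74% in either direction. The unannotated Aco021174 had 1.80 ± 0.72 (edgeR, adjusted p = 0.262, and 0.0209 to 0.481 over the alternatives).

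Without overlap between the ages, all 3 libraries of 90 DAF lay above all 3 of 60 DAF in 15 members (16.5%), against 10.4% of all tested genes. The reverse held in 1 member, Aco018867, against 10.2%. The 15 were Aco012545, Aco000155, Aco011484 and Aco009326 of the lipid and wall group, the transporter Aco014965, the kinase Aco000698, the acyltransferase Aco022111, the repressor-type Aco011137, Aco016325 with its reproduction term, and the unannotated Aco021174, Aco015059, Aco000780, Aco004478, Aco006869 and Aco008082. Members at the other end of the order had wide errors. The most negative fits were those of Aco011717 (-3.31 ± 2.26, adjusted p = 0.508) and Aco016785 (-3.16 ± 1.98, adjusted p = 0.481), both carried at 60 DAF by replicate 2. Aco014000 had -1.44 ± 0.84 (edgeR, adjusted p = 0.434), smaller than the spread among its libraries.

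Libraries of 1 age differed widely in the members. The median coefficient of variation over the members was 0.355 at 60 DAF, 0.449 at 90 DAF and 0.700 at 120 DAF. Over the unassigned genes expressed at the younger ages it was 0.156, 0.273 and 0.175. The rule favours this contrast, so it is not read as a trait of the members. The members had to be low at 120 DAF, which the other genes did not, and a high library can carry a younger mean past the limits. Replicate 2 was the highest library in 46 members at 60 DAF (50.5%), in 53 at 90 DAF (58.2%) and in 58 at 120 DAF (63.7%). Over the unassigned genes expressed at the younger ages the shares were 28.96, 39.9 and 46.2%. The genes at least 3 times higher in it differed between the younger ages. At 60 DAF they were Aco011993, Aco011992, Aco002343, Aco008952, Aco016785, Aco024621, Aco004297, Aco011717, Aco023096, Aco000359, Aco011197 and Aco029263. At 90 DAF they were Aco014000, Aco011993, Aco011992, Aco005306, Aco014547, Aco007507, Aco023695, Aco031302, Aco003312, Aco006941, Aco001180, Aco012610 and Aco011492. The overlapping models Aco011993 and Aco011992 were in both sets.

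Without the libraries numbered 2 of 60 and of 90 DAF, an alternative chosen after the values were seen, the rule found 68 genes, 64 of them members. Leaving out 60 DAF replicate 2 alone removed 16 members, and leaving out 90 DAF replicate 2 alone removed 13. Without 120 DAF replicate 2 it found 138 genes.

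**Figure D4:**
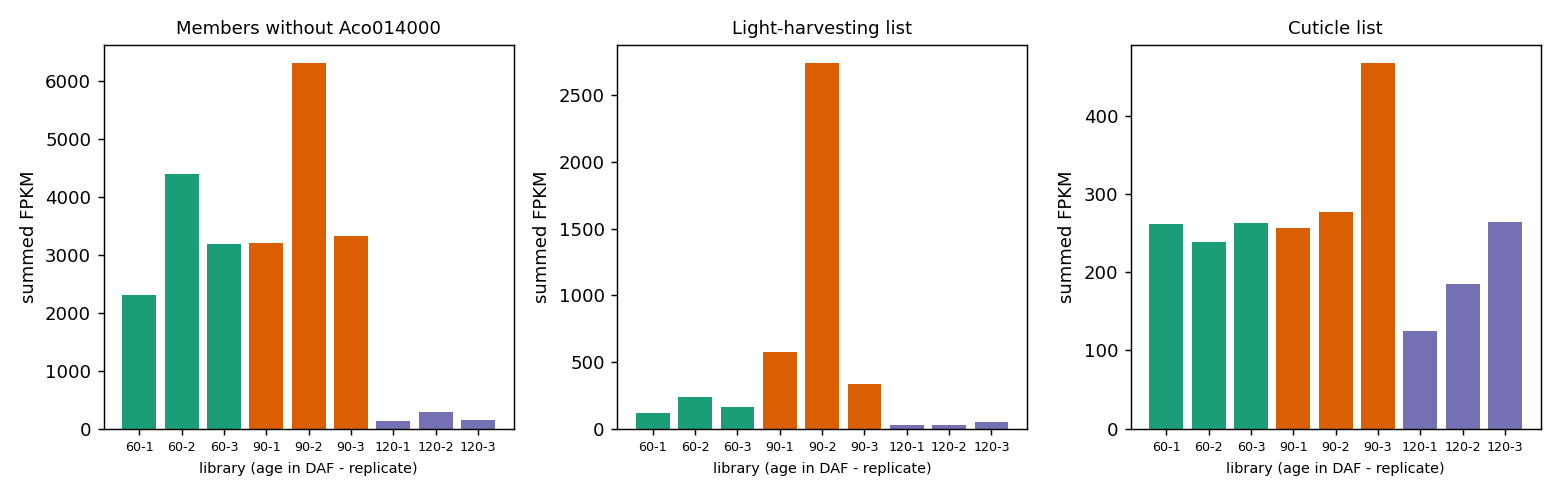
Summed FPKM per library (bars, coloured by age) of the members without Aco014000, of the light-harvesting list and of the cuticle list. The members and the light-harvesting genes are both highest in 90 DAF replicate 2, at 6306 and 2744 FPKM, and the cuticle genes are highest in 90 DAF replicate 3, at 468.

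Overlapping gene models limit the reading of some members. Another model overlapped 23 of 91 members (25.3%), against 19.3% of the unassigned genes expressed at the younger ages. On the same strand this held for 16 members, and when the levels of the overlapping models were added, 14 of the 16 still passed the fold limit. For several that was fixed beforehand. Aco024621 and Aco004297, and Aco006465 and Aco030268, are members that overlap only each other. The models added to Aco014547 and Aco026327 had no count in any library. In the rest of the 14, the models added had means of at most 0.918 FPKM at every age. The 2 that did not pass were Aco031302 and Aco025830, each overlapped by a model expressed in every library. Aco031302 shares 99.02% of its span with Aco007353, and stood at 60.2, 0.0404 and 65.6 FPKM at 60 DAF, then 0.0425, 46.4 and 0.0478 at 90 DAF, then 0.0313, 0.0152 and 0.0207 at 120 DAF. Aco007353 stood at 46.6, 104 and 50.7 FPKM, 55.7, 8.92 and 70.5 FPKM and 90.7, 72.4 and 68.03 FPKM at the same ages. The pair summed to 107, 104 and 116, then 55.7, 55.3 and 70.6, then 90.7, 72.4 and 68.1, so the locus as a whole was not low at 120 DAF. Aco025830 and Aco023752 have the same coordinates (contig 18, 10173668 to 10201993). Aco025830 stood at 0.368, 54.6 and 61.3 FPKM at 60 DAF, then 0.409, 0.613 and 32.6 at 90 DAF, then 0.390, 0.465 and 0.221 at 120 DAF, while the pair summed to 84.4, 90.4 and 100.5, then 100.02, 102 and 73.7, then 63.9, 80.5 and 64.9 FPKM. At 120 DAF the summed level of the second locus was below all younger libraries in 2 of 3 libraries.

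**Figure D5:**
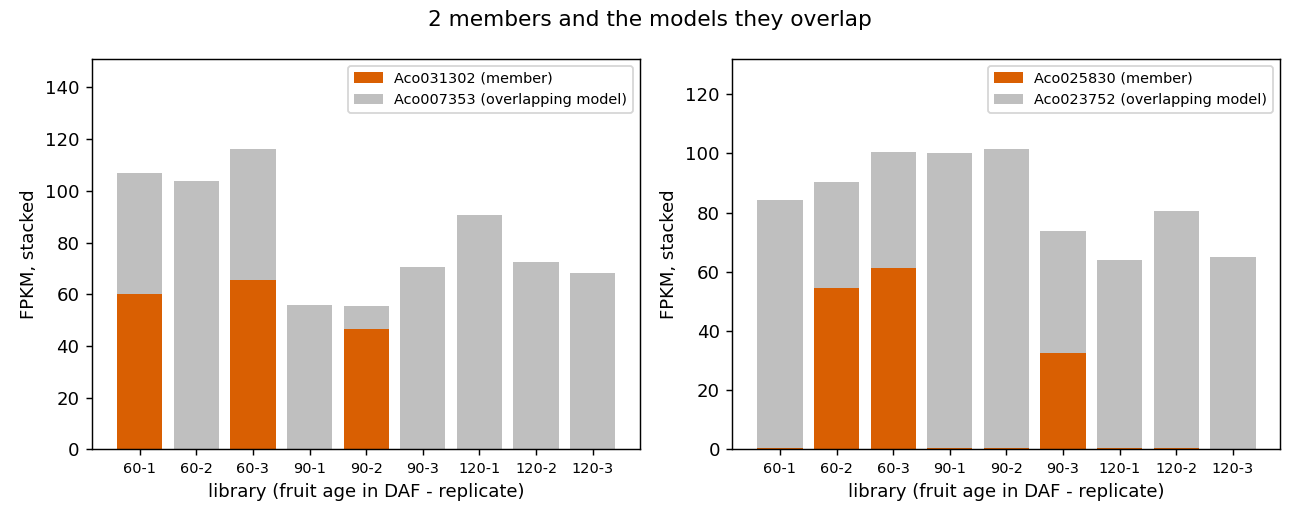
Stacked FPKM per library of Aco031302 with Aco007353 and of Aco025830 with Aco023752, the member in orange and the overlapping model in grey. The orange part is visible in 3 of 9 libraries of each pair, while the full bars at 120 DAF stand between 63.9 and 90.7 FPKM.

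On opposite strands, Aco011992 lies over Aco011993, and the strand setting of the counting is not given in the sources used here, so their reads may not be told apart. Aco011992 stood at 7.57, 27.8 and 6.74 FPKM at 60 DAF, then 6.16, 22.8 and 6.93 at 90 DAF, then 0.894, 1.37 and 0.935 at 120 DAF, with replicate 2 the highest at both younger ages, as in the much higher Aco011993. With models of either strand added, 19 of the 23 still passed the fold limit. Here too some sums had to pass, such as that of Aco011992 and Aco011993, members that overlap only each other. Aco006465 and Aco030268 overlap on the same strand and are both members. The lipid transport gene Aco029263 passed with models of its own strand added and not with those of both strands.

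The median span of a member was 1779 bp, against 3634 bp over the unassigned genes expressed at the younger ages. A span under 600 bp was found in 17 members (18.7%), against 6.83%. They were spread over 24 of 25 contigs, and 6 were direct neighbours of another member, all as the overlapping pairs named above. Of the members 90 were listed as protein-coding, and Aco008082 was listed as a non-translating coding sequence.

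Other genes with the members' GO terms were tested between 120 DAF and the younger ages, with the members left out. Of all 16791 tested genes, edgeR called 17.4% between 120 and 90 DAF, 8.19% higher and 9.17% lower at 120 DAF. Against 60 DAF it called 9.47%, 4.25% higher and 5.22% lower. Of 23 other genes with channel activity, 8 fell and 1 rose against 90 DAF, and 6 fell and 1 rose against 60 DAF. Their median log2 fold changes were -2.04 and -1.81, where all tested genes had -0.03 and -0.01. The channel term met the limit of 3 members only with Aco024621 and Aco004297, models of 1 locus, counted apart. Of 23 other lipid transport genes, 3 fell and 0 rose against 90 DAF, and 3 fell and 0 rose against 60 DAF, with medians of -0.09 and -0.24. Of 88 other genes of the extracellular region, 17 fell and 8 rose against 90 DAF, and 10 fell and 6 rose against 60 DAF. Beside the 0 lipid transport genes that rose by edgeR, 2 were higher against 90 DAF at an unadjusted p under 0.05, 2 by DESeq2 and 0 by limma, and 0 against 60 DAF by any of these. For comparisons with 120 DAF, the shares of all tested genes by these other measures are not given. Such counts, here and below, thus have no background beside them. Of 4 other genes with the xylan synthesis term, a term chosen after values were seen, 2 were tested and 0 rose or fell against either age, with medians of -0.54 against 90 DAF and -0.80 against 60 DAF. At an unadjusted p under 0.05 1 of them was lower against each age, DESeq2 called 1 lower against 60 DAF and 0 against 90 DAF, and limma called 0. Further terms were also chosen after values were seen. Of 151 other transmembrane transporter genes, 25 rose and 15 fell against 90 DAF, and 15 rose and 12 fell against 60 DAF (edgeR). Of 52 for metal ion transport, 7 rose and 6 fell, then 4 and 4. Of 3 for the inhibitor term, 2 rose and 0 fell, then 1 and 0. Aco013999, described above, is 1 of the 2 that rose against 90 DAF. Of 13 for xyloglucan, 0 rose and 2 fell, then 0 and 0. For sexual reproduction 1 was tested and not called. Counted together, the genes of the channel, lipid transport and extracellular region terms that fell against 90 DAF dropped from 28 to 17 when 120 DAF replicate 1 was left out, and to 18 when the second library of 90 DAF was. Against 60 DAF they were 6, 10, 9 and 8 with replicate 1 of 120 DAF, its replicate 3, replicate 2 of 60 DAF and its replicate 3 left out in turn, from 19. Those that rose went from 9 to 4 against 90 DAF with replicate 1 of 120 DAF left out. Against 60 DAF they went from 7 to 3 or 4 with replicate 1 or 3 of 120 DAF left out, and to between 2 and 4 with any 60 DAF library left out.

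Of 17 tested light-harvesting genes 12 fell against 90 DAF and 5 against 60 DAF, and of 17 cuticle genes 3 and 2 fell. In neither list was a gene called higher at 120 DAF by edgeR, and at an unadjusted p under 0.05 or by DESeq2 1 cuticle gene was higher than at 60 DAF. Without 120 DAF replicate 1, 7 light-harvesting genes fell against 90 DAF. The 5 against 60 DAF became 1 when replicate 1 or 3 of 120 DAF or any one 60 DAF library was left out, 3 with replicate 2 of 120 DAF left out and 9 with replicate 2 of 90 DAF left out. The 2 cuticle genes became 0 with replicate 1 of 120 DAF or replicate 2 or 3 of 60 DAF removed, and 1 with the third library of 120 DAF, or the first of either 60 or 90 DAF, removed. Scaling by total counts moved the median of all tested genes to -0.32 against 90 DAF and -0.29 against 60 DAF, so these counts are relative to the scaling used.

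At the edge of the rule, the members just inside the fold limit were Aco017935, Aco010694 and Aco005945, with smaller ratios of 8.21, 8.43 and 8.54. Just outside lay Aco018457, Aco001279 and Aco008892, with 7.96, 7.85 and 7.64. Aco010694, unannotated, stood at 23.2, 47.3 and 47.1 FPKM at 60 DAF, then 50.3, 25.6 and 32.4 at 90 DAF, then 1.97, 10.01 and 0.584 at 120 DAF, with replicate 2 far above the others at 120 DAF. The same limits on the 4372 genes with a KEGG ortholog and both younger means at the level limit found 57 (1.304%), close to the share among unassigned genes. The mirrored limits, with 120 DAF at least 8 times both younger ages, found 42 unassigned genes.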

How the data were processed

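The 9 peel libraries were mapped to the ages 60, 90 and 120 DAF by their labels, 3 each. The deposited table holds whole-number counts per gene model and the authors' FPKM values, per the file headers. Every value at count 0 was written there as 0.0001 FPKM and was set to 0 (65846 values). The tools named in the submitters' processing notes are StringTie 1.3.0, HISAT2 2.0 and Bowtie 0.12.2. What each tool did, the build of the genome and any use of strand are not stated in the sources used here. How counts were divided between overlapping or near-identical models is not given either. Contigs and positions are those of the deposited table.

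Members were found by the rule given in the report. The members and the gene lists were chosen with earlier results of these data known. Counts of the 16791 genes that reached 1 FPKM in 3 or more libraries entered 1 edgeR 4.0.16 quasi-likelihood fit over all 9 libraries, with TMM scaling, age as the only term and 6 residual degrees of freedom. Benjamini-Hochberg adjustment ran over all genes tested, with a threshold of 0.05. The TMM factors ran from 0.849 to 1.15. Fold changes carry this scaling and printed FPKM values do not. DESeq2 1.42.0 and limma 3.58.1 on log2(FPKM + 1) computed from the deposited FPKM values were alternatives, as were other scalings and filters, only the compared ages, the replicate number as a block and each library left out. R 4.3.3, Python 3.11.15, pandas 2.3.3 and matplotlib 3.10.9 were used.

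Members were named by a rule that takes the 10 most abundant, those at 0 throughout 120 DAF, those called between 60 and 90 DAF, those with a description, up to 3 of each annotation group, those at the fold limit and direct neighbours, 39 in all. Other named members were chosen after their values were seen. The light-harvesting and cuticle lists follow KEGG orthologs, and a list of core histones found 0 genes in the table. GO terms carried by at least 3 members and at most 300 genes gave the lists of other genes. Library depth was 35038248 to 52937826 counts. Bounds against a floor of 3 counts cover counting error only. No sequence is printed.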

Additional observations from a re-analysis of the deposited data

How the results depend on the processing

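The number of genes the rule finds (91) was 36 with 1 FPKM added in place of 0.1, 247 and 43 with a fold limit of 4 and of 16, 181 and 47 with a level limit of 1 and of 10 FPKM, and 79 to 138 with 1 library left out. It was 74, all of them members, with FPKM divided by the TMM factor, which is below that of every younger library in all 3 of 120 DAF. With the median of 3 libraries in place of the mean it was 113, of which 69 were members, and without the libraries numbered 2 of 60 and 90 DAF 68, of which 64 were. Members called higher at 90 than at 60 DAF (1) were 6 by DESeq2, 6 by limma on log2(FPKM + 1), 0 with the replicate block, 0 without the libraries numbered 2 of 60 and 90 DAF, and 0 to 3 with 1 library left out, and 0 were called lower by edgeR, DESeq2 or limma. Of all tested genes, 0 to 129 were called higher with 1 library left out, and 0 without the libraries numbered 2 of 60 and 90 DAF. At an unadjusted p under 0.05 edgeR had 11 members higher and 0 lower. The members' median log2 fold change between those ages was 0.05 to 0.55 with 1 library left out. Same-numbered libraries had correlations of deviations from -0.34 to 0.39, and differently numbered ones from -0.36 to 0.31. The labels do not say what a number stands for. With deviations taken from a mean of 3 libraries, these values cannot decide whether the numbers pair the samples. Over all tested genes the block left 2 called higher and 8 lower between 60 and 90 DAF, against 54 and 78.

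Among other genes of the GO terms, 7 rose and 19 fell at 120 against 60 DAF. DESeq2 called 12 and 34, limma 31 lower, and without the libraries numbered 2 of 60 and 90 DAF 11 fell. With 1 library left out 2 to 7 rose and 6 to 21 fell. Against 90 DAF 28 fell, 17 with a filter of 5 FPKM, which tests fewer genes, and 17 to 24 with 1 library left out, where 4 to 10 rose. Light-harvesting genes lower at 120 than at 60 DAF (5) were 9 by DESeq2, 9 with only those ages fitted, 2 with the replicate block and 1 to 9 with 1 library left out, and against 90 DAF 7 to 12. Cuticle genes lower than at 60 DAF (2) were 1 with the 5 FPKM filter, 1 with no filter, 1 with the replicate block, 1 without the libraries numbered 2 and 0 to 3 with 1 library left out, and DESeq2 called 1 higher. Against 90 DAF (3) they were 1 with the 5 FPKM filter and 2 to 4 with 1 library left out. The cause was not tested.

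Of 1623 pairs of a member and an alternative for 90 against 60 DAF, 1600 kept their side of the threshold, 10 lost a call, all of Aco012545, and 13 gained one. In 102 pairs the fitted sign changed without a call in either fit. Where a member was near 0 at 120 DAF, its ratio depends on the constant added, and few counts stand behind it.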
